A study of Mus musculus with 12 samples.

Results

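The genes described here encode the kinases that sense and relay DNA damage, their relatives and the activators of ATR: Atm, Atr, Prkdc, Smg1, Mtor, Trrap, Chek1, Chek2, Atrip and Topbp1. They were chosen by gene symbol, each symbol matched 1 row, and these 10 rows of the 29486 genes in the deposited table are all accounted for below. mRNA was sequenced from primary splenic B cells of C57BL/6Babr mice, in 12 libraries of 3 conditions with 4 libraries each. All cells were activated with LPS (10 µg/ml), a bacterial lipopolysaccharide that drives B cells to divide. The LPS condition had 48 h of LPS. In the LPS + etoposide condition, 48 h of LPS were followed by 4 h of etoposide (20 µM), a topoisomerase II poison that leaves DNA double-strand breaks. In the LPS + KU55933 + etoposide condition, cells had 47 h of LPS, 1 h of the ATM kinase inhibitor KU55933 (10 µM) and then 4 h of etoposide (20 µM). If the LPS cells were collected at 48 h, the treated cells were longer in culture. Time in culture and treatment then cannot be told apart. The mice were 8 to 12 weeks old by the study's methods, no genotype other than the strain is given, and how many mice stand behind a library is not given in the labels. No cells received KU55933 without etoposide, so an effect of the inhibitor on undamaged cells and on damaged cells cannot be told apart here. Each condition also has sequencing indexes of its own, and index and condition cannot be told apart.

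ATM is activated by double-strand breaks, ATR by single-stranded DNA coated with replication protein A, and both phosphorylate the checkpoint kinases CHK2 and CHK1, which hold the cell cycle and act on p53. DNA-PKcs (Prkdc), SMG1, mTOR and TRRAP are large proteins of the same PI3K-like kinase family with tasks in end joining, mRNA quality control, growth and histone acetylation. In B cells, programmed breaks at the immunoglobulin loci make ATM and DNA-PKcs part of normal development and class switching. The mRNA levels below do not report kinase activity.

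Within a condition, the ratio of any library's column to another's was the same number for all genes, to within 1.4e-14 in log2. The columns therefore hold 1 fitted level per gene and condition times a scaling factor per library, and no spread between replicates. No standard deviation or p-value could be had, and every difference below is a difference of fitted levels, described against the differences of all genes. Levels are normalized counts, the deposited values divided by a scaling factor for each library. Folds are on the log2(value + 1) scale, and a fold was counted as past the limit when it was over 1.5-fold. Genes at 10 or more normalized counts in at least 4 libraries were kept (15613, all 10 members among them). The deposited values summed to between 20400994 and 30575195 per library. For the 10 genes the values correspond to between 2619 and 57606 reads over the 4 libraries of a condition, which gives a counting error of 0.0086 to 0.0375 on a log2 fold. This covers counting error only and says nothing of differences between cultures.

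The B cell label was checked on markers. All 5 B cell markers (Cd79a, Cd79b, Ms4a1, Pax5 and Cd22) were at 5406 normalized counts or more with LPS. T cell markers summed to 10.8, 23.0 and 14.8 normalized counts in LPS, LPS + etoposide and LPS + KU55933 + etoposide. Of the 6, 1 was past the filter on low values, Trac, at 2.83, 13.9 and 5.44 in the same order. Trac passed it through the etoposide libraries only. Neutrophil markers were at 0.465 or less each, and the single natural killer cell marker found, of 2 listed, was at 1.08 or less. Macrophage markers, 6 of 6 past the filter, summed to 407, 475 and 434 normalized counts. Within that sum 3 were higher past the limit with etoposide, Cd14 (4.23-fold, at 5.05 and 24.6 normalized counts), Csf1r (2.27-fold, at 4.08 and 10.5) and Cd68 (2.09-fold, at 102 and 215), and Itgam was lower (1.64-fold, at 215 and 131). Csf1r passed the filter only through the etoposide libraries (9.79 with both agents), and Cd14 only through the treated ones. For such low genes the filter favours those that are higher in a treated condition. Red cell markers summed to 67.1, 52.0 and 37.0. The B cell markers themselves summed to 102297, 55907.5 and 53428 normalized counts in the same order, with 3 of 5 lower past the limit with etoposide, Cd22 (-2.44) and Pax5 (-2.25) by most. The part of this difference in the levels below was not tested. In bulk RNA, fewer cells of a type and less RNA per cell cannot be told apart. Of all genes kept, 23.4% were higher and 14.4% lower past the limit with etoposide.

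The promoters of the 3 members with the largest etoposide folds, Chek2, Atm and Topbp1, are shown first, since their levels differed in opposite directions under the same treatment. Each runs from 250 bases before to 50 bases after the RefSeq start (build GRCm38.p6), 5′ to 3′ on the gene's own strand. Capitals mark matches, on either strand, to a GC box with the letters GGGCGG, to CCAAT, to the core promoter letters TATAAA, or to an E2F core. The E2F cores searched were TTTGGCGC or TTTCCCGC or TTTCGCGC or TTTGCCGC. Chek2 is chr5:110839733-110840032 on the plus strand, Atm is chr9:53536622-53536921 on the minus strand and Topbp1 is chr9:103305077-103305376 on the plus strand.
Chek2: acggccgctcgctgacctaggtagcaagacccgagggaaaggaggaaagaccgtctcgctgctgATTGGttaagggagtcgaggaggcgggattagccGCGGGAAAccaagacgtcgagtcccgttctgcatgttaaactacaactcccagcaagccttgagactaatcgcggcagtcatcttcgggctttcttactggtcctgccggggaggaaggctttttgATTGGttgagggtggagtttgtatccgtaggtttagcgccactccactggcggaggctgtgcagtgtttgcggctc
Atm: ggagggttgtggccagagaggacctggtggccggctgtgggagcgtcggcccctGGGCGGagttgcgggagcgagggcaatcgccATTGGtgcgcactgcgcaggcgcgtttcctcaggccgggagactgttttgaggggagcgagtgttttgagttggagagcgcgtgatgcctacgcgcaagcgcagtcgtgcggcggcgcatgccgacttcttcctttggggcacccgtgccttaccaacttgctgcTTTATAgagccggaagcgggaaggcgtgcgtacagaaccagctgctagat
Topbp1: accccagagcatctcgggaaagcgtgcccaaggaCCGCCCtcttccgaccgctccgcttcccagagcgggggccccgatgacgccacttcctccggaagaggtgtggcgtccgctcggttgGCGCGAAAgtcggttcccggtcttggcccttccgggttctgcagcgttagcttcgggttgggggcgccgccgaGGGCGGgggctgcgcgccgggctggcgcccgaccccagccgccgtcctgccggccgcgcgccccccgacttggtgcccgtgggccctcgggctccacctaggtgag
The E2F core, the letters bound by the E2F factors of the cell cycle, was present in Chek2 at 152 bases and in Topbp1 at 129 bases before the start. It was found in 2 of the 9 members with a promoter entry and in 2.26% of all 32851 promoters of the same length. The Chek1 window ended in the letters gcgggaa, and a core running past the edge of a window was not counted. Chek2 also held CCAAT boxes at 186 and 26 bases before the start, and no GC box. Atm held a GC box, a CCAAT box and TATAAA letters on the opposite strand at the start itself. Over the 9 promoters, 7 held a GC box against 35.7% of all promoters and 5 a CCAAT box against 37.4%. The letters TATAAA, on either strand, were in 1 of the 9, the Atm match at the start, against 13.6%. The cyclic AMP response core TGACGTCA (1.79% of all promoters), a single p53 decamer (8.36%) and a full p53 site of paired decamers (0.0731%) were in none of the 9. The GC content was 56.7% for Chek2, 64% for Atm and 73.7% for Topbp1, against a median of 52.7% over all promoters. These matches are descriptions of letters in a 300-base window. The RefSeq start is not always the outer end of the gene span given below. The windows of Chek1 and Trrap lie wholly inside those spans, and distances to the start depend on the start used.

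Chek2 was the member with the largest difference. Chek2 (ENSMUSG00000029521, chr5:110839979-110874145, plus strand) encodes CHK2, the kinase that ATM phosphorylates at double-strand breaks. Its deposited values were 708, 785, 817 and 736 in the 4 LPS libraries, 1919, 2150, 2605 and 2085 with etoposide, and 1027, 1158, 1240 and 1261 with KU55933 and etoposide. Within a condition these values differ only by the scaling factor, so they do not show how far replicates were apart. Divided by that factor, Chek2 was at 845 normalized counts in LPS cells, 2004 once etoposide was given and 1140 when both agents were given. It was 2.37-fold higher with etoposide (log2 fold 1.246), a fold above that of 88.1% of the 15613 genes kept. With KU55933 added it was 1.76-fold lower than with etoposide alone (log2 fold -0.81), and 6.95% of genes lay further down. Against LPS it stayed above by a log2 fold of 0.43, short of the limit. Under 5 ways of scaling the columns the etoposide fold of Chek2 ran from 1.13 to 1.32 and the KU55933 fold from -0.81 to -0.76, all past the limit.

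With etoposide against LPS, 1 of 10 members, Chek2, was higher past the limit and 0 were lower. Over all genes kept, 23.4% were higher and 14.4% lower past the limit. Among the 6051 kept genes whose mean was at least the 838 normalized counts of the lowest member (the abundant genes below), 12.3% were higher and 16.6% lower. With KU55933 and etoposide against etoposide alone, 0 members were higher and 1, Chek2, was lower, against 6.93% and 11.9% of all genes kept and 4.38% and 5.98% of the abundant genes. With KU55933 and etoposide against LPS, no member passed the limit in either direction, against 22.0% higher and 14.2% lower of all genes kept and 10.6% and 17.5% of the abundant genes. The 3 comparisons share libraries and are not independent of each other. The median absolute log2 fold of the members with etoposide was 0.22, against 0.41 over all genes kept and 0.33 over the abundant genes. For the addition of KU55933 it was 0.20, against 0.26 and 0.21, and for both agents against LPS 0.32, against 0.41 and 0.34. The members' median log2 folds were -0.02 with etoposide, -0.10 for the addition of KU55933 and -0.06 for both agents, against 0.04, -0.05 and 0.07 over all genes kept.

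**Figure D1:**
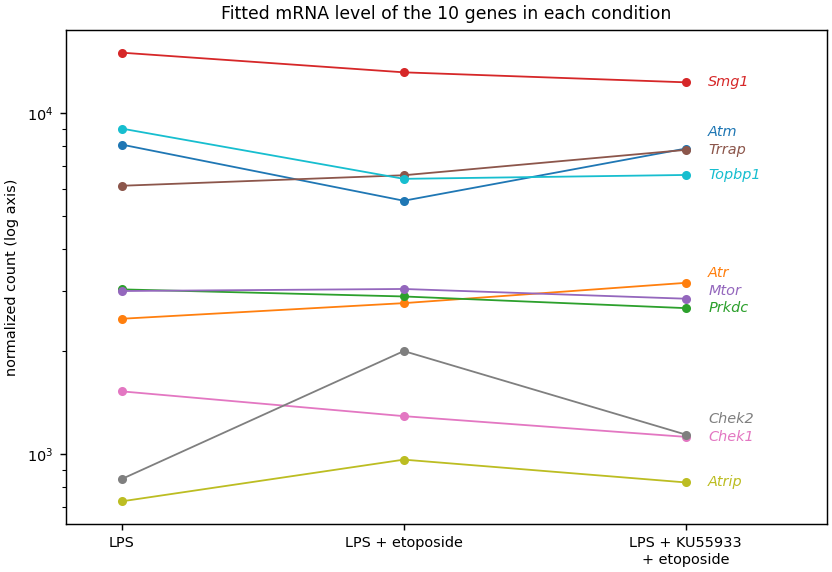
Fitted level of the 10 genes in each condition, as normalized counts on a log axis. Each point is 1 condition (4 libraries, no spread in the files) and lines join the points of a gene. Chek2 peaks with etoposide at 2004 normalized counts, Atm dips to 5536, and Prkdc and Mtor stay nearly level. The height of a gene also depends on its length.

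Chek1, whose product CHK1 is the main target of ATR, was lower in both treated conditions. Chek1 (ENSMUSG00000032113, chr9:36708482-36727065, minus strand) was at 1526 normalized counts with LPS, 1291 with etoposide and 1122 with both agents. The log2 folds were -0.24 for etoposide and -0.20 for the addition of KU55933, and -0.44 for both agents against LPS. The order of the 3 conditions was the same under each of the 5 scalings.

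Atm (ENSMUSG00000034218, chr9:53439149-53536740, minus strand), the gene of the kinase that KU55933 inhibits, was lower with etoposide and higher again with KU55933. Its deposited values were 6778, 7520, 7823 and 7049 with LPS, 5299, 5939, 7193 and 5757 with etoposide, and 7091, 7996, 8566 and 8707 with both agents. Before scaling, the highest etoposide library overlapped the LPS libraries, but here too values within a condition differ only by the scaling factor. After scaling Atm was at 8088 normalized counts with LPS, 5536 with etoposide and 7875 with both agents. It was 1.46-fold lower with etoposide (log2 fold -0.55) and 1.42-fold higher once KU55933 was added (log2 fold 0.51), both short of the limit. Among all genes kept, 15.6% lay below Atm in the former comparison and 91.1% below it in the latter. The scalings gave -0.66 to -0.31 with etoposide, past the limit in 2 of 5, and 0.51 to 0.63 for the addition of KU55933, past it in 1 of 5. Against LPS, Atm with both agents differed by -0.04, and the sign of this fold depended on the scaling (-0.11 to 0.32).

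**Figure D2:**
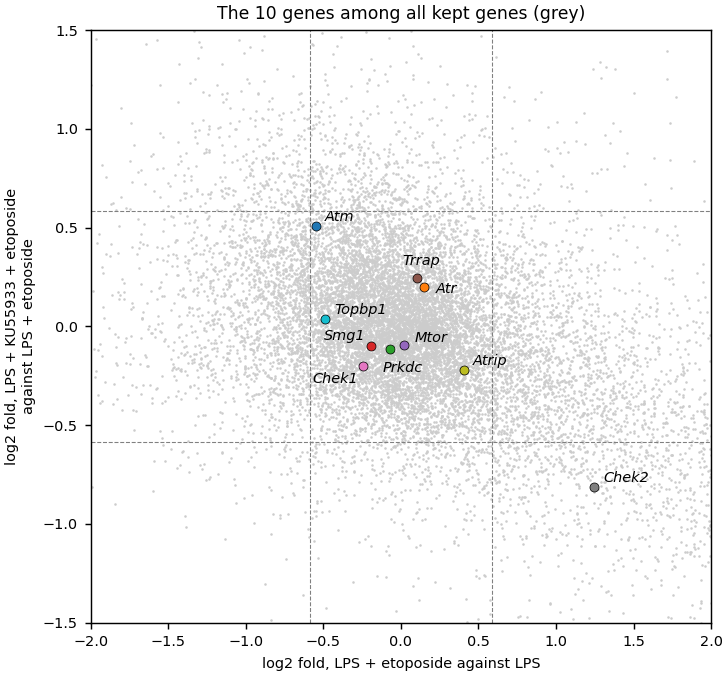
Log2 fold with etoposide against LPS (x axis) and with KU55933 and etoposide against etoposide (y axis) for 14562 of the genes kept (grey), with the 10 members in colour. Another 1051 genes lie outside the axes, dashed lines mark the 1.5-fold limit, and both axes use the etoposide libraries. Chek2 sits at the lower right (1.246, -0.81) and Atm at the upper left (-0.55, 0.51).

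The other PI3K-like kinases differed little. Atr (ENSMUSG00000032409, chr9:95857597-95951781, plus strand), the kinase of stalled replication forks, was at 2493, 2771 and 3178 normalized counts in LPS, LPS + etoposide and LPS + KU55933 + etoposide. Its log2 folds were 0.15 with etoposide, 0.20 when KU55933 was added and 0.35 for both, and each was above 0 under all 5 scalings. Atr exons share 726 bases with the antisense gene 1700065D16Rik (at 8.73 to 17.7 normalized counts), 462 bases with the antisense gene Gm16794 (49.0 to 54.4) and 178 bases with the small nuclear RNA Gm24004, not analysed here. The strand setting of the counting is not given in the sources used here.

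Prkdc (ENSMUSG00000022672, chr16:15637866-15842235, plus strand), the catalytic subunit of DNA-PK in end joining, was at 3041, 2899 and 2679 normalized counts in the same order. Its log2 fold with etoposide was -0.07, and its sign depended on the scaling (-0.18 to 0.02). Smg1 (ENSMUSG00000030655, chr7:118131308-118243670, minus strand), the kinase that phosphorylates UPF1 in nonsense-mediated mRNA decay, was at 15056, 13184 and 12323 normalized counts. Its log2 fold was -0.19 with etoposide, with a range of -0.30 to 0.00 over the scalings, and -0.29 for both agents. Mtor (ENSMUSG00000028991, chr4:148448611-148557683, plus strand), the growth kinase of the mTOR complexes, was at 3007, 3049 and 2855 normalized counts. Its log2 fold with etoposide was 0.02, above 0 in 3 and below 0 in 2 of the 5 scalings.

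Trrap (ENSMUSG00000045482, chr5:144767732-144859778, plus strand) encodes a family member without kinase activity, a scaffold of histone acetyltransferase complexes. It was at 6125, 6576 and 7806 normalized counts, with log2 folds of 0.10 for etoposide, 0.25 for the addition of KU55933 and 0.35 for both. The etoposide fold was below 0 in 1 of 5 scalings, and the fold for both agents was 0.65 under quantile scaling, past the limit.

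The activators of ATR lay in opposite directions with etoposide. Atrip (ENSMUSG00000025646, chr9:109057933-109074124, minus strand), the partner that brings ATR to single-stranded DNA, was at 726 normalized counts with LPS, 962 with etoposide and 825 with both agents. It was 1.32-fold higher with etoposide (log2 fold 0.41) and lower by a log2 fold of -0.22 when KU55933 was added, the same directions as Chek2 under all 5 scalings. Of the exonic bases of Atrip, 1147 (16.0%) are shared with Trex1 on the same strand, not analysed here, so reads there may belong to either gene. Topbp1 (ENSMUSG00000032555, chr9:103305215-103350428, plus strand), which stimulates ATR kinase activity, was at 9012 normalized counts with LPS, 6418 with etoposide and 6589 with both agents. It was 1.404-fold lower with etoposide (log2 fold -0.49, past the limit in 1 of 5 scalings), and differed by 0.04 when KU55933 was added. Atm and Topbp1 were thus lower with etoposide to a like extent, and the addition of KU55933 left Topbp1 near its etoposide level and Atm near its LPS level.

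**Figure D3:**
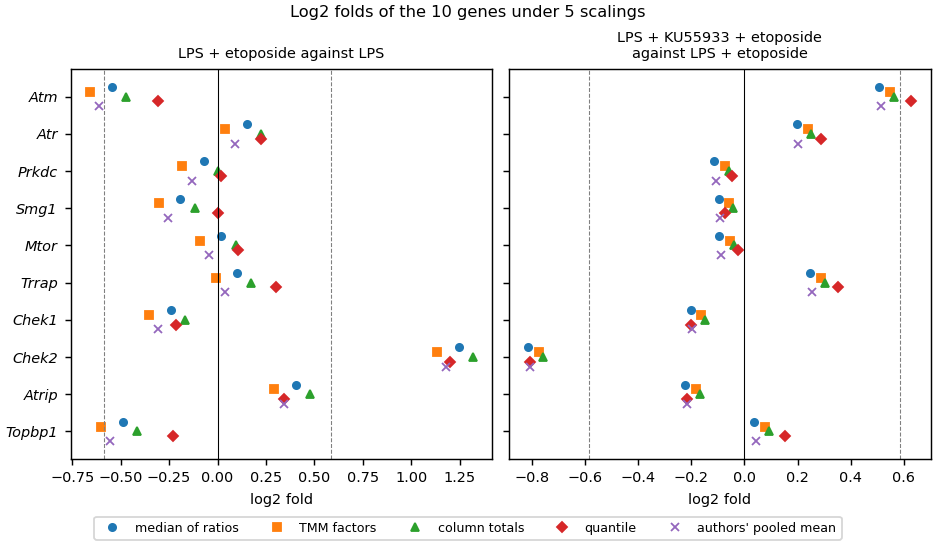
Log2 folds of the 10 genes under 5 scalings of the deposited columns, for etoposide against LPS (left) and KU55933 plus etoposide against etoposide (right). Symbols are the scalings, dashed lines the 1.5-fold limit. The Chek2 symbols lie past the limit in both panels, those of Atm lie on both sides of it, and those of Prkdc and Mtor lie near 0. Those of Smg1 run from -0.30 to 0.00 on the left.

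Levels can be compared between genes only per length. In normalized counts per kilobase of merged exons, the order with LPS was Topbp1 (803), Atm (782), Smg1 (628), Chek1 (329), Mtor (298), Trrap (294), Chek2 (281), Prkdc (231), Atr (106) and Atrip (102). Whether neighbours in this order differ beyond the spread of replicates could not be judged. In the same unit with etoposide, Chek2 came to the top at 668 per kilobase, ahead of Topbp1 (572), Smg1 (550) and Atm (535). With both agents Atm led at 762 per kilobase, and Chek2 was at 380. Per kilobase of merged exons, Chek1 was thus above Chek2 with LPS and below it with etoposide (279) and with both agents (242). With both agents this depended on the length used. Chek1 was at 1122 normalized counts over 1.428 kb of coding length and Chek2 at 1140 over 1.638 kb, so Chek1 was above Chek2 per coding kilobase. Dividing by the longest transcript instead kept 2 of 10 places of the LPS order, and by coding length 1 of 10, while Topbp1 was at the top in each. Per kilobase of the longest transcript Topbp1 led in the other conditions too, at 1229 with etoposide, ahead of Chek2 (881), and at 1261 with both agents, ahead of Atm (802).

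Some members share a promoter region with a gene on the opposite strand. Hscb, an iron-sulphur cluster chaperone, starts 202 bases from Chek2, within the Chek2 promoter printed above. Hscb was at 425 normalized counts with LPS, 426 with etoposide and 583 with both agents. Its log2 fold with etoposide was 0.00 where that of Chek2 was 1.246, and its fold for the addition of KU55933 was 0.45 where that of Chek2 was -0.81. Npat, a regulator of histone genes, starts 307 bases from Atm. It was at 1849, 1629 and 1903 normalized counts, with log2 folds of -0.18 and 0.22 in the directions of Atm and smaller. Mcm4, a subunit of the replicative helicase, starts 466 bases from Prkdc and had log2 folds of -0.22 with etoposide and -0.46 for the addition of KU55933, against -0.07 and -0.11 for Prkdc. 1300017J02Rik, 133 bases from Topbp1, was at 6.67, 18.7 and 15.8 normalized counts, and 4930583K01Rik, 195 bases from Smg1, was at 1.10 or less.

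**Figure D4:**
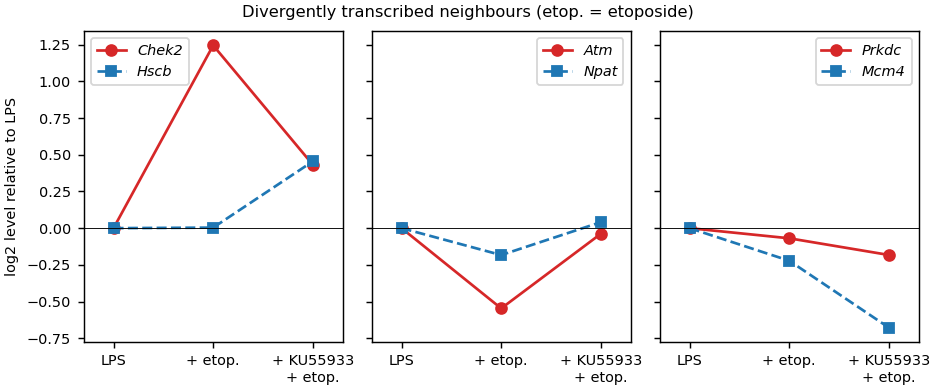
Log2 level relative to LPS (y axis) in the 3 conditions (x axis) for Chek2, Atm and Prkdc (red circles) and the gene that starts next to each on the opposite strand (blue squares). Chek2 reaches 1.246 with etoposide while Hscb stays at 0.00, and the 2 meet near 0.43 to 0.46 with both agents.

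Most members are long genes, and 5 of 10 (Atm, Atr, Chek1, Atrip and Topbp1) lie on chromosome 9, which holds 5.57% of the genes kept. The PI3K-like kinase genes span 92.0 kb (Trrap) to 204 kb (Prkdc), against a median of 17.5 kb over the genes kept. Among the abundant genes, the median log2 fold with etoposide was 0.03 for spans under 15 kb, -0.12 for 30 to 60 kb, -0.27 for 90 to 120 kb and -0.53 for 120 kb or more. Of the 318 abundant genes of 90 to 120 kb, 25.8% were lower past the limit. Of the 5 members in that range, Atm (-0.55) lay below the median of its range and Smg1 (-0.19), Mtor (0.02), Trrap (0.10) and Atr (0.15) above it. Prkdc, at -0.07, lay above the -0.53 of the longest genes. Chek2 and Topbp1 are of 30 to 60 kb, where the median was -0.12, and lay on opposite sides of it. When KU55933 was added, the median for 90 to 120 kb was -0.12, and all 5 members of that range were above it, Atm (0.51) and Trrap (0.25) by most.

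The partners of these kinases were described through 8 lists with 74 genes, all past the filter. With etoposide 6 of 74 (8.11%) were higher and 11 (14.9%) lower past the limit, with a median log2 fold of -0.22, against 23.4% and 14.4% of all genes kept and 12.3% and 16.6% of the abundant genes. For the addition of KU55933 the counts were 4 (5.41%) and 6 (8.11%), with a median of -0.02, against 6.93% and 11.9% of all genes kept and 4.38% and 5.98% of the abundant genes. For both agents against LPS they were 5 (6.76%) and 16 (21.6%), with a median of -0.24, against 22.0% and 14.2% of all genes kept and 10.6% and 17.5% of the abundant genes. The counts with etoposide ran over the scalings from 4 to 8 higher and from 10 to 15 lower, and for both agents against LPS from 3 to 9 higher and from 12 to 18 lower. The single lists are small, and their counts are read against the same shares.

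Of 10 activators of ATM and break mediators, 2 were lower with etoposide and 0 higher. H2afx, the histone variant that ATM phosphorylates beside breaks, was at 1843 normalized counts with LPS, 232 with etoposide and 841 with both agents, log2 folds of -2.99 and then 1.86. Nbn, the subunit of the MRE11 complex that recruits ATM, had a log2 fold of -0.81 with etoposide, and Bard1, the partner of BRCA1, one of -0.89 with both agents against LPS. Of 12 activators and adaptors of ATR, 1 was lower with etoposide, Rhno1 (-0.68), a partner of the 9-1-1 clamp. Adding KU55933 left 2 lower, Tipin (-0.73) and Clspn (-0.67), which link ATR to CHK1 at the fork. The median of the 12 was then -0.18, against -0.05 over all genes kept and -0.06 over the abundant genes. Against LPS, Rpa1 (-0.82) and Clspn (-0.80) were lower with both agents.

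Of 9 substrates of the checkpoint kinases and their regulators, 3 were higher and 3 lower with etoposide. Mdm2, the ubiquitin ligase of p53, was at 2562, 16917 and 9582 normalized counts, and Ppm1d, the phosphatase that reverses ATM and CHK2 phosphorylation, was at 850, 3740 and 1847. Both had the pattern of Chek2, higher with etoposide (2.72 and 2.14 on the log2 scale) and lower again with KU55933 (-0.82 and -1.02). Cdc25b (-1.55) and Cdc25c (-1.08), phosphatases that start mitosis, were lower with etoposide. Wee1, the kinase that restrains CDK1, was also lower with etoposide (-0.73), and lower again by a log2 fold of -0.95 when KU55933 was added. Trp53 itself was at 5800, 5620 and 5010 normalized counts, with a log2 fold of -0.05 for etoposide.

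The 7 assembly factors that fold PI3K-like kinases had a median log2 fold of -0.36 with etoposide. It was 0.04 over all genes kept and -0.08 over the abundant genes. Of the 7, 1 was past the limit, the ATPase Ruvbl1 (-0.73). Over the scalings the number past the limit was 1 or 2. With both agents against LPS, Ruvbl1 (-0.81) and Rpap3 (-0.70) were lower. Of 6 partners of DNA-PK in end joining, 0 passed the limit with etoposide or when KU55933 was added, and Xrcc6, which encodes Ku70, was lower with both agents against LPS (-0.64). Of 8 mTOR complex subunits, Mapkap1 (-0.93) and Rptor (-0.72) were lower with etoposide. Adding KU55933 left Prr5 lower (-0.71) and Prr5l higher (1.03, at 16.1 and 34.0 normalized counts).

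Of 9 partners of Smg1 in nonsense-mediated decay, Upf3b (0.98) and Upf3a (0.68) were higher and the endonuclease gene Smg6 (-0.75) lower with etoposide. Smg9 was higher when KU55933 was added (0.61), and Smg8 was higher with both agents against LPS (0.60), past the limit in 2 of 5 scalings. Upf3a was past it with etoposide in 4 of 5. Of 13 subunits of Trrap complexes, Supt7l (0.63) was higher and Kat2b (-0.62) lower with etoposide, past the limit in 2 and 4 of the 5 scalings. Taf6l was higher when KU55933 was added (0.62), and Ep400 was lower with both agents against LPS (-0.59, past the limit in 3 of 5 scalings).

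**Figure D5:**
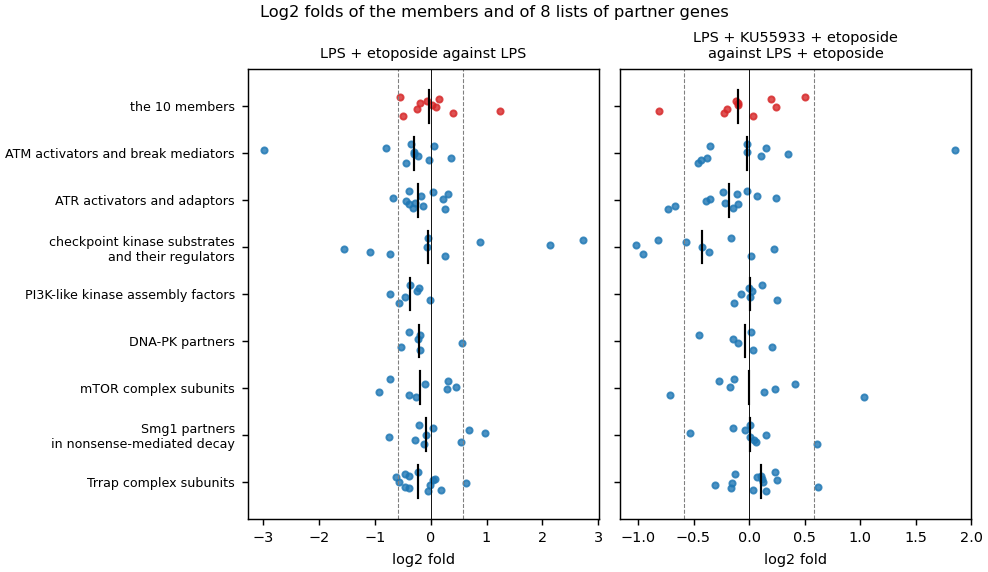
Log2 folds of the 10 members (red) and of 8 lists of partner genes (blue) for etoposide against LPS (left) and KU55933 plus etoposide against etoposide (right). Each point is a gene, black bars are medians and dashed lines the 1.5-fold limit. H2afx at -2.99 and Mdm2 at 2.72 are the extremes on the left, and H2afx at 1.86 lies farthest out on the right.

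Genes of the cell cycle and of the p53 response also differed between the conditions. Past the limit with etoposide, 23.4% of all genes kept were higher and 14.4% lower, and 12.3% and 16.6% of the abundant genes. For the addition of KU55933, 11.9% of all genes kept and 5.98% of the abundant genes were lower. For both agents against LPS, these shares were 14.2% and 17.5%. Of 10 mitosis genes, 8 were lower with etoposide (median log2 fold -1.498), 4 were lower with KU55933 added than with etoposide alone (-0.50) and 10 were lower with both agents against LPS (-2.02). Of 11 replication genes, 1 was lower (Mcm6, -0.74) and 1 higher (Rrm2, 0.73) with etoposide, 2 were lower when KU55933 was added (median -0.46), and 9 were lower with both agents against LPS. Over the scalings, the number lower with both agents ran from 3 to 9, and with etoposide from 0 to 4. For both agents, Topbp1 (-0.45), Chek1 (-0.44), Smg1 (-0.29), Prkdc (-0.18), Mtor (-0.08) and Atm (-0.04) lay in the direction of most replication genes. The signs of Mtor and Atm depended on the scaling, and the other members lay above 0. The median was -0.06 over the members and -0.09 over the abundant genes. The part of cell cycle state in these levels was not tested. Of 5 p53 targets, 5 were higher with etoposide (median 4.73) and 3 lower when KU55933 was added (median -0.75). Cdkn1a, the CDK inhibitor, was at 402, 13652 and 10869 normalized counts. The part of p53 activity in the level of Chek2 was not tested.

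Among 10872 genes with a mean of at least 100 normalized counts, 74 lay within 0.25 of Chek2 in the pair of log2 folds for etoposide and for the addition of KU55933. The nearest were Zfp125, Nup210l and Ccdc15, at distances of 0.0229, 0.0266 and 0.0439 in that pair of log2 folds. Zfp125 was at 109, 255 and 146 normalized counts, Nup210l at 139, 332 and 185, and Ccdc15 at 362, 846 and 493.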

How the data were processed

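Per the labels and the study's methods, polyA RNA libraries (Illumina TruSeq) were trimmed with Trim Galore and cutadapt 1.2.1, aligned to GRCm38 with TopHat2 2.0.12, counted per gene with HTSeq on Ensembl release 78 annotation and fitted with DESeq2 1.6.3. The strand setting of the counting is not given in the sources used here. The deposited normalized counts are a signal: fitted condition means times library factors. They are not raw counts, so no count model was used, and the limma test planned for a table with replicate spread could not be run. The authors also deposited the fold changes, errors and p-values of their own comparisons, which were not used, apart from the authors' mean over all libraries, which served as a signal for 1 further scaling.

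The columns were divided by median-of-ratios factors (0.838 to 1.30) over genes at 10 or more in every column. Genes at 10 or more in at least 4 of 12 columns were kept (15613, among them all 10 members). Folds used a pseudocount of 1 and a limit of 1.5-fold. The other scalings were TMM factors, column totals, quantile normalization and factors from the authors' pooled mean. The members, lists and named-gene rule were chosen with earlier results of these data known. Named were all members, up to 2 genes each way per list and comparison past the limit, Trp53 and Cdkn1a, and the 3 genes nearest to the member with the largest etoposide fold. A further B cell marker was left out and is not reported here. Gene positions came from GENCODE M21 (GRCm38) for 99.5% of the genes kept, promoters from RefSeq (9 of 10 members matched). Scripts used Python 3.11.15, numpy 2.4.6 and pandas 2.3.3, and were tested on simulated data.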

Additional observations from a re-analysis of the deposited data

How the results depend on the processing

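No paired analysis was possible because the columns of a condition are multiples of 1 fitted level and carry no deviation of single libraries; for the same reason leaving out each of the 12 libraries moved a member's fold by at most 0.00673 on the log2 scale and says nothing of replicate error. With etoposide against LPS, the number of members past the limit was 1 with the median-of-ratios scaling, 3 with TMM factors (Atm, Chek2 and Topbp1), 2 with the columns as deposited (Chek2 and Atrip), 2 with factors from the authors' pooled mean (Atm and Chek2), a scaling chosen after seeing the data, and 4 with a lower limit (0.32 on the log2 scale). For the addition of KU55933 it was 1, against 2 with quantile normalization and 2 with the lower limit (Atm and Chek2), and 0 with a limit of 2-fold, where Chek2 (-0.81) fell short. For both agents against LPS it was 0, against 1 with quantile normalization (Trrap), 1 with the columns as deposited (Chek2) and 5 with the lower limit. The members' median log2 fold was -0.02 with etoposide, -0.14 with TMM factors and 0.25 as deposited. For both agents against LPS it was -0.06, and 0.070 with column totals, 0.10 with quantile normalization and 0.13 as deposited. The median of all genes with etoposide was 0.04, and -0.07 with TMM factors, -0.10 with quantile normalization and 0.32 as deposited. For both agents against LPS it was 0.07, and 0.20 with column totals and 0.26 as deposited. The split of all genes past the limit with etoposide, 23.4% higher and 14.4% lower, became 17.4% and 21.7% with quantile normalization, 20.5% and 18.7% with TMM factors and 33.2% and 7.35% as deposited. With KU55933 added it was 6.93% and 11.9%, and 9.29% and 9.61% with quantile normalization. For both agents it was 22.0% and 14.2%, and 16.8% and 17.4% with quantile normalization and 26.8% and 10.4% with column totals. The order per kilobase kept 2 of 10 places with the longest transcript and 1 of 10 with coding length. Of 690 single folds under the alternatives, 673 stayed on their side of the limit, and of these 16, all short of it, had the other sign. Another 16 came past the limit and 1 fell short of it, and no fold past the limit changed sign. The 690 folds include those of the 12 settings leaving out 1 library, which could hardly move. They also include those under other filters on low values, which leave a member's fold as it is. The tally is therefore no measure of how firm the folds are. The causes were not tested, other than that each limit sets its own count.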
